A study of Mus musculus with 18 samples.

Results

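The genes described are 33 genes of sterol and fatty acid synthesis, chosen by name for their place in the pathways: 17 enzymes of the sterol pathway, 4 regulators or carriers (Insig1, Srebf1, Srebf2 and Stard4) and 12 enzymes of fatty acid synthesis, desaturation and elongation. Of these, 32 had a count in at least 1 library, among 27504 genes with a count of 52636 in each deposited table, and all 32 passed the filter on low counts with 18298 genes in all. Mvd, mevalonate diphosphate decarboxylase, had no count in any of the 18 libraries. All of its exon bases (100%) lie inside the span of another annotated gene, Gm20388, and 0% lie inside another gene's exons. Whether this overlap led to the 0 was not tested. Mvd is treated as not measured, and its 0 is not read as absence of expression.

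The 18 RNA-seq libraries came from mammary glands of mice aged 6 months, 3 biological replicates in each of 6 groups. Mice carried the Esr1 mutation D542G, the Esr1 mutation Y541S or wild type Esr1 (WT), the gene of estrogen receptor alpha. Cells were sorted into a gate labelled N, whose sorting markers the labels do not give, and the mature luminal gate (ML), and N is set against ML below, the mutants against WT and D542G against Y541S. Every animal, WT included, had received pellets of estradiol and progesterone (E2/P4) and then giredestrant, an estrogen receptor alpha antagonist, at 30 mg/kg by mouth each day for 4 days. No library of untreated or hormone-only mice was analysed here, and the source label of the N libraries is also mature luminal cells. The labels do not say in which cells the mutant alleles were present or whether animals were pooled.

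Cells build cholesterol from acetyl-CoA through mevalonate, squalene and lanosterol, and they build fatty acids from acetyl-CoA through malonyl-CoA, with desaturases and elongases finishing the chains. Both pathways are switched on by the SREBP transcription factors, encoded by Srebf1 and Srebf2, which are held in the endoplasmic reticulum by INSIG proteins when sterols are plentiful. The alveolar epithelium of the lactating mammary gland is known for making large amounts of fatty acid for milk, and the epidermis and sebaceous glands of the skin are known for making sterols, fatty acids and waxes.

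SREBP proteins bind sterol response elements, often beside boxes bound by NF-Y, and 26 of the 33 genes had a promoter window in RefSeq (build GRCm38.p6). Windows of 250 bases before to 50 bases after each start were searched on both strands for letters of a sterol response element (TCACNCCAC) and of the NF-Y box (CCAAT), whose letters can overlap by the last C of the first and the first C of the second. The sterol element's letters were in 1 of the 26 genes (3.85%), Hmgcs1, against 1.44% of 27025 genes with a window. CCAAT was in 22 of 26 (84.6%), against 41.1% of all genes. Shown are 250 bases before the start, 5′ to 3′ on the gene's own strand, of 3 sterol genes that were highest in the same 3 N libraries and of Fads2, the member that differed most between gates. Capitals mark either motif on either strand (CCAAT reads ATTGG on the other strand).
Hmgcs1, chr13:119690101-119690350, plus strand: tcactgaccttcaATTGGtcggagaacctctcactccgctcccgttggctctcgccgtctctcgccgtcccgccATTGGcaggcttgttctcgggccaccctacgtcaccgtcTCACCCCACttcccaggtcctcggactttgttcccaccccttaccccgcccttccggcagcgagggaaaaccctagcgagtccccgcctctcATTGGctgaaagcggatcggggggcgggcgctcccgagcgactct
Msmo1, chr8:64733579-64733828, minus strand: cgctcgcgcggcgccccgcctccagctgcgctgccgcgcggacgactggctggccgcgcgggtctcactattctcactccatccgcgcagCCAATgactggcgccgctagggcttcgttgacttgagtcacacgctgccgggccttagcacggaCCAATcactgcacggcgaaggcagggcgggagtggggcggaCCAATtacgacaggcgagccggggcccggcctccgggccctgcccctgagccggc
Mvk, chr5:114444019-114444268, plus strand: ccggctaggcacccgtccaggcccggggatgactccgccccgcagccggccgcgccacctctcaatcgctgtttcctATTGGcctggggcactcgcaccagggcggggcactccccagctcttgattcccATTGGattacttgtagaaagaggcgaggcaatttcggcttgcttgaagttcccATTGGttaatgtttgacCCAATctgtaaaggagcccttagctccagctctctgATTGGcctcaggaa
Fads2, chr19:10101504-10101753, minus strand: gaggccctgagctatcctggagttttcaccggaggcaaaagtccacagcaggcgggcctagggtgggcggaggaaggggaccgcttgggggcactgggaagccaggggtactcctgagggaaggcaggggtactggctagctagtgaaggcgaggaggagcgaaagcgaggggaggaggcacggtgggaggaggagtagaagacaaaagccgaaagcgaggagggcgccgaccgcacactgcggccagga
In these stretches Hmgcs1 held the sterol element TCACCCCAC, starting at base 114, and 3 CCAAT boxes. Msmo1 held 3 CCAAT boxes and Mvk held 5. Fads2 held neither motif in this stretch. The E-box CACGTG was in 5 of the 26 genes (19.2%), against 8.09% of all genes, and the GC box GGGCGG in 21 of 26 (80.8%), against 38.2%. A match describes letters only and is not evidence of a bound site.

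Library totals ran from 34797778 to 49507144 counts. Levels are given as CPM, counts relative to the scaled library total, and compare libraries for 1 gene, not genes with each other. A gene is called where the adjusted p of edgeR's quasi-likelihood test was under 0.05 over all 18298 genes, and fold changes are log2 values ± standard error. Several libraries stood apart. Summed luminal markers (11 genes, Krt8, Krt18 and Krt19 among them) reached 18250 CPM in the library labelled WT N 3. They reached 1202 to 6745 CPM in the 8 other N libraries and 15208 to 31715 CPM in ML, so WT N 3 lay within the ML range. The labels give no sorting markers for N, and a swap of samples was not tested. The 10 basal markers of WT N 3 summed to 6137 CPM, against 14736 to 39720 CPM in the other N libraries. WT ML 1 and WT ML 2 held 9529 and 6539 CPM of basal markers, against 155 to 3095 CPM in the other ML libraries. Epidermal markers (11 genes) summed to 12446 CPM in Y541S N 3, 5050 CPM in WT N 1 and 11012 CPM in WT N 2, against 37.6 to 832 CPM in the other N libraries. Milk and alveolar markers (11 genes) summed to 37057 CPM in Y541S N 2 and 39162 CPM in Y541S ML 2, against 1098 to 1737 CPM in the other N and 6544 to 15799 CPM in the other ML libraries.

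The N cells held less RNA of Fads2 than the ML cells in each genotype. Over the mean of the genotypes they also held less of several sterol enzymes, both SREBP genes and Elovl7. Elovl7 was lower in N in the mutants, but its mean in WT was higher in N. Over the mean of the 3 genotypes, 11 of the 32 genes fell and 0 rose. Of all genes tested, 27.4% were called in this comparison, 13.8% higher and 13.6% lower. The median log2 fold change of the 32 genes was −0.27, against −0.03 for all genes. Of the 16 measured sterol enzymes 6 fell, of the 4 regulators or carriers 2, and of the 12 fatty acid enzymes 3. All 10 basal markers rose in N against ML over the genotypes, Krt14 by 4.93 ± 0.71 among them, and their part in the falls was not tested. In bulk samples, fewer cells of a type and less RNA per cell cannot be told apart.

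**Figure D1:**
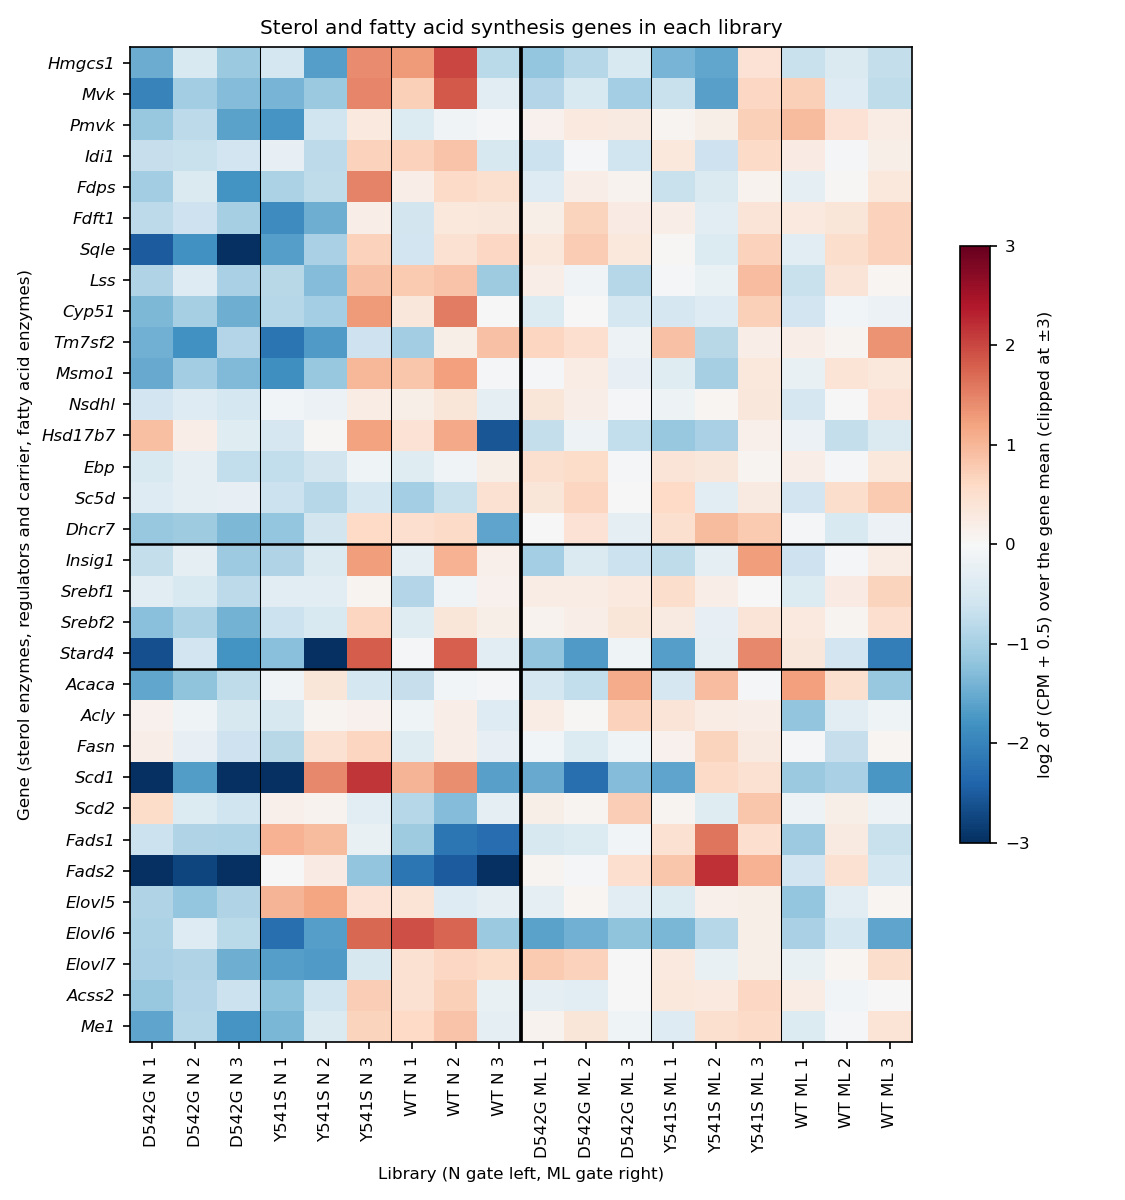
Level of each of the 32 measured genes in each library, as log2 of (CPM + 0.5) over the gene's mean across the 18 libraries, clipped at ±3 (red above, blue below); N libraries stand left of the heavy line and ML libraries right. The row of Fads2 is blue in the N libraries of D542G and WT, and most sterol rows are red in Y541S N 3, WT N 1 and WT N 2.

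Fads2 encodes the desaturase that opens the synthesis of long polyunsaturated fatty acids and lies on chromosome 19 (10062765 to 10101746, minus strand, GRCm38). In N libraries it stood at 18.3, 23.1 and 12.2 CPM for D542G, 160.0, 188 and 69.4 CPM for Y541S and 34.8, 27.8 and 12.8 CPM for WT. In ML libraries it stood at 167, 153 and 224 CPM for D542G, 285, 720.1 and 325 CPM for Y541S and 106, 218 and 109 CPM for WT. Every N library was below every ML library of its own genotype, and all 9 N libraries were below the ML median. The log2 fold change was −2.51 ± 0.28 over the 3 genotypes (adjusted p = 2.64e-05). Within genotypes it was −3.34 ± 0.51 in D542G (adjusted p = 0.00141), −1.67 ± 0.48 in Y541S (adjusted p = 0.0482) and −2.52 ± 0.49 in WT (adjusted p = 0.0158). The Y541S call was lost in 16 of 18 fits that left out 1 library, and the WT call without WT ML 2 or WT N 2.

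Fads1, the partner desaturase that acts later on the same chains, lies on the same chromosome (10182888 to 10196877, plus strand). It stood at 172, 145 and 142 CPM in D542G N, 559, 519 and 231 CPM in Y541S N and 128, 60.2 and 55.5 CPM in WT N. In ML it stood at 194, 205 and 254 CPM for D542G, 372, 828 and 382 CPM for Y541S and 126, 329 and 170.1 CPM for WT. The gates overlapped in Y541S and in WT but not in D542G. Its fold change over the 3 genotypes was −0.71 ± 0.25 (adjusted p = 0.0480, N lower in 7 of 9 pairs of the same number), a call lost with the replicate number as a block (adjusted p = 0.0657) and in 13 of 18 fits that left out 1 library. The fits that kept it left out WT ML 1, WT N 1, Y541S N 1, Y541S ML 1 or Y541S ML 3.

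Elovl7, an elongase of long saturated chains, stood at 60.03, 63.3 and 43.1 CPM in D542G N, 37.4, 36.5 and 85.4 CPM in Y541S N and 162, 182 and 174 CPM in WT N. Its ML values were 205, 194 and 117 CPM for D542G, 147, 102 and 135 CPM for Y541S and 102, 124 and 173 CPM for WT. The mutants' N libraries lay below their ML libraries, while the WT gates overlapped. In WT the mean was higher in N, at 173 CPM against 133 CPM in ML. The fold change was −0.84 ± 0.19 over the 3 genotypes (adjusted p = 0.00436, N lower in 6 of 9 pairs), −1.63 ± 0.33 in D542G (adjusted p = 0.00718) and −1.27 ± 0.33 in Y541S (adjusted p = 0.0306). The Y541S call was lost without Y541S ML 1, Y541S ML 3, Y541S N 1 or Y541S N 2.

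**Figure D2:**
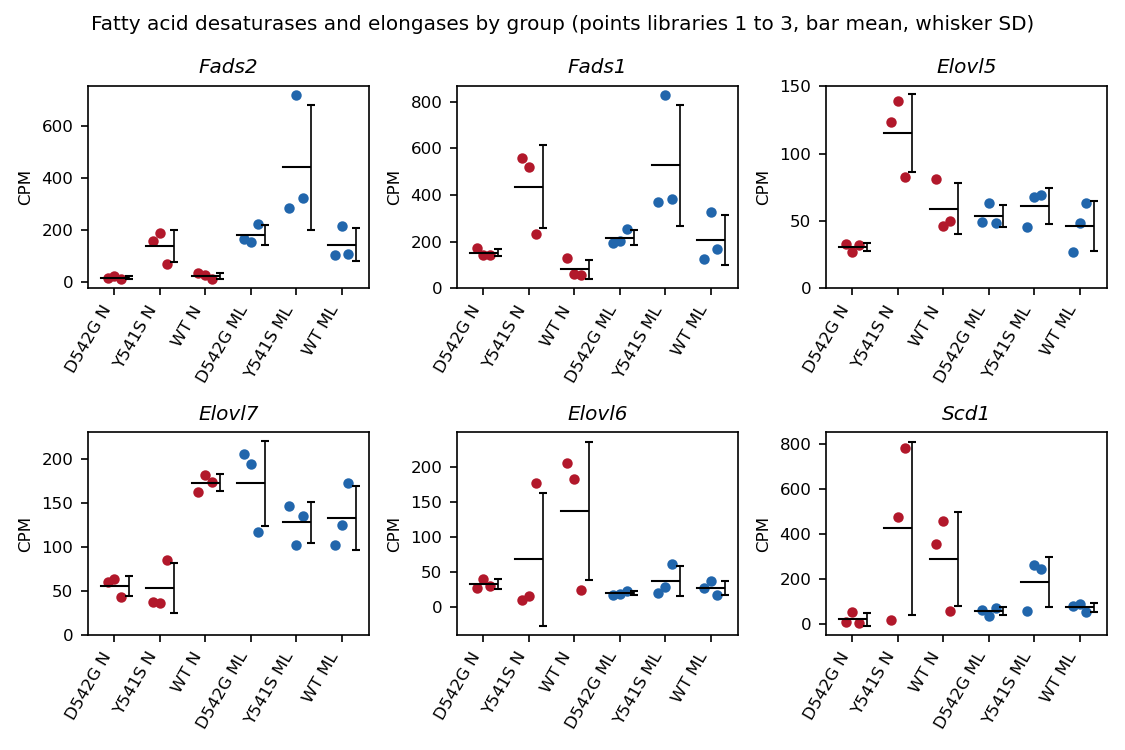
CPM of 6 desaturase and elongase genes in the 6 groups, N groups in red and ML groups in blue; points are libraries 1 to 3 from left to right, bars the mean and whiskers the SD (n = 3), which may reach below 0. Fads2 is low in D542G N and WT N, Elovl7 is low in both mutants' N groups, and Elovl6 and Scd1 spread widely within Y541S N and WT N.

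The 6 sterol enzymes that fell did so by less than Fads2. Ebp, an isomerase late in the pathway, stood at 61.3, 70.2 and 50.4 CPM in D542G N, 49.8, 57.04 and 76.7 CPM in Y541S N and 65.2, 78.6 and 94.8 CPM in WT N, against 117, 124 and 80.3 CPM in D542G ML, 110.5, 107 and 88.95 CPM in Y541S ML and 96.8, 80.8 and 105 CPM in WT ML. N was lower in 9 of 9 pairs, and the fold change was −0.60 ± 0.12 (adjusted p = 0.00293). Pmvk, which adds the second phosphate to mevalonate, stood at 11.6, 14.98 and 8.31 CPM in D542G N, 7.30, 17.2 and 31.9 CPM in Y541S N and 19.6, 24.4 and 25.7 CPM in WT N. Its ML values were 28.4, 32.2 and 31.8 CPM for D542G, 27.5, 29.4 and 43.3 CPM for Y541S and 50.6, 35.4 and 30.7 CPM for WT. N was again lower in 9 of 9 pairs, with Y541S N 3 the only N library inside the ML range, and the fold change was −0.99 ± 0.23 (adjusted p = 0.00588).

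Sqle, squalene epoxidase, a rate-limiting enzyme after HMG-CoA reductase, lies on chromosome 15 (59315077 to 59331192, plus strand). It stood at 22.3, 36.5 and 8.94 CPM in D542G N, 40.8, 65.4 and 208 CPM in Y541S N and 87.01, 177 and 199 CPM in WT N. In ML it stood at 162, 218 and 159.6 CPM for D542G, 133, 97.6 and 208 CPM for Y541S and 103, 186 and 209 CPM for WT. All 3 D542G N libraries, Y541S N 1, Y541S N 2 and WT N 1 were below every ML library, and the other 3 N libraries were within the ML range. The fold change was −1.19 ± 0.33 over the 3 genotypes (adjusted p = 0.0165, N lower in 9 of 9 pairs) and −2.99 ± 0.62 in D542G (adjusted p = 0.00826).

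Tm7sf2, a sterol reductase, was low throughout, at 2.04, 1.47 and 3.24 CPM in D542G N, 1.01, 1.61 and 3.95 CPM in Y541S N and 2.84, 7.29 and 12.1 CPM in WT N. Its ML levels were 10.2, 9.29 and 5.68 CPM for D542G, 12.1, 3.39 and 7.36 CPM for Y541S and 7.35, 6.83 and 16.97 CPM for WT. WT N 3 was the only N library above the ML median, and the fold change was −1.40 ± 0.37 (adjusted p = 0.0125, N lower in 8 of 9 pairs). Of its exon bases, 12.1% lie inside the span of Vps51, so its counts may share reads with that gene.

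Fdft1, squalene synthase, stood at 21.1, 23.6 and 18.2 CPM in D542G N, 9.53, 13.1 and 42.4 CPM in Y541S N and 24.8, 46 and 46.96 CPM in WT N, against 41.4, 58.7 and 43.6 CPM in D542G ML, 42.2, 29.6 and 48.5 CPM in Y541S ML and 45.3, 47.1 and 59.8 CPM in WT ML. N was lower in 9 of 9 pairs, and the fold change of −0.82 ± 0.25 (adjusted p = 0.0252) was lost as a call without D542G ML 2 or WT N 1. Ctsb overlaps 18.3% of its exon bases. Sc5d, a desaturase of the sterol ring, stood at 63.6, 68.6 and 70.5 CPM in D542G N, 53.2, 46.02 and 58.5 CPM in Y541S N and 41.2, 53.1 and 115 CPM in WT N. Its ML values were 109, 132 and 82.6 CPM for D542G, 127, 66.9 and 102 CPM for Y541S and 55.8, 121 and 146 CPM for WT. The mutants' gates did not overlap and the WT gates did. The fold change was −0.73 ± 0.22 (adjusted p = 0.0227, N lower in 9 of 9 pairs), and the call was lost without Y541S ML 1, WT N 2 or the 3 epidermal-rich N libraries together (adjusted p = 0.142 without them).

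The genes of both SREBP factors fell as well. Srebf2, which drives the sterol genes, lies on chromosome 15 (82147181 to 82205379, plus strand) and stood at 89.7, 109.6 and 79.2 CPM in D542G N, 137, 156 and 335 CPM in Y541S N and 166, 274 and 239.7 CPM in WT N. Its ML values were 229, 244 and 276 CPM for D542G, 258, 180.3 and 277 CPM for Y541S and 260.5, 226 and 305 CPM for WT. All D542G N libraries were below all ML libraries, while WT N overlapped WT ML. The fold change was −0.61 ± 0.17 over the 3 genotypes (adjusted p = 0.0178, N lower in 7 of 9 pairs) and −1.43 ± 0.31 in D542G (adjusted p = 0.0104, lost without D542G N 3). Srebf1, whose product drives fatty acid genes in many tissues, averaged 149 ± 22.8 CPM in D542G N, 188 ± 33.5 CPM in Y541S N and 183 ± 60.4 CPM in WT N (SD, n = 3 each). It averaged 255 ± 7.16 CPM in D542G ML, 258 ± 46.5 CPM in Y541S ML and 253 ± 91.6 CPM in WT ML. All 9 N libraries were below the ML median, and the fold change was −0.57 ± 0.16 (adjusted p = 0.0179, N lower in 8 of 9 pairs), a call lost without the 3 epidermal-rich N libraries (adjusted p = 0.0655).

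**Figure D3:**
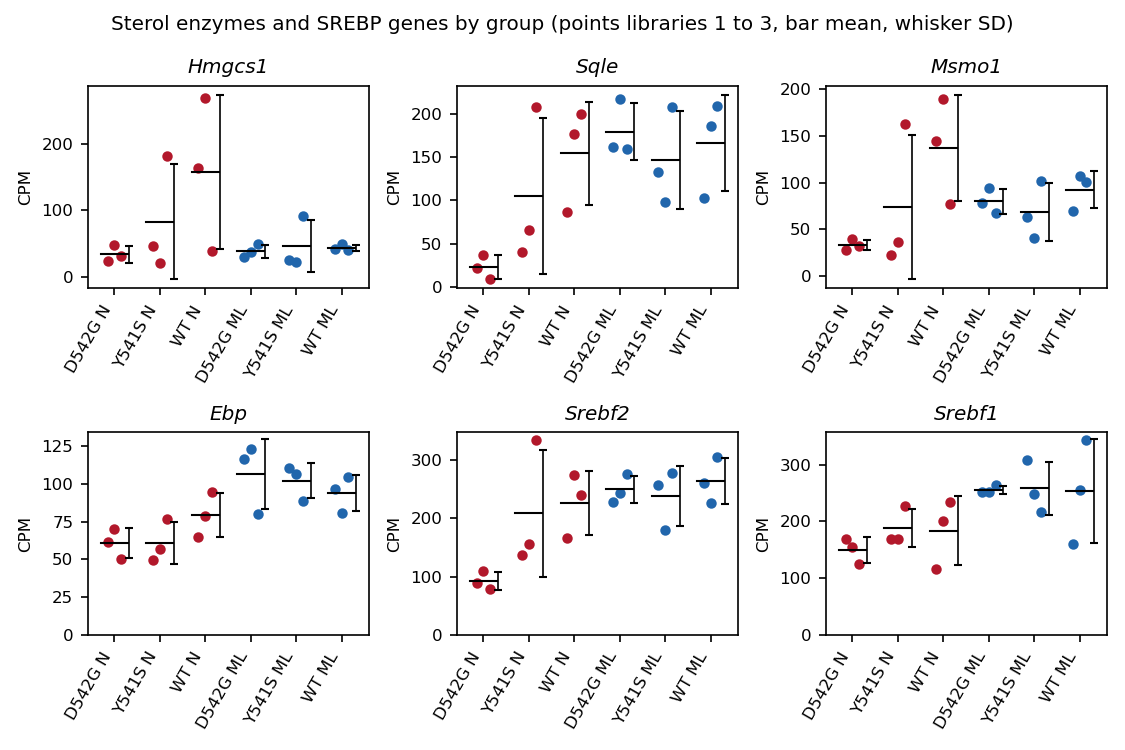
CPM of 4 sterol enzymes and both SREBP genes in the 6 groups, N groups in red and ML groups in blue; points are libraries 1 to 3 from left to right, bars the mean and whiskers the SD (n = 3). Sqle and Srebf2 are low in all 3 D542G N libraries, and Hmgcs1 is highest in Y541S N 3, WT N 1 and WT N 2.

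The other 21 genes did not pass the test between gates. Elovl6, which lengthens palmitate, had the largest positive fold change, 1.32 ± 0.50 (adjusted p = 0.0650). It stood at 27.9, 40.8 and 30.7 CPM in D542G N, 10.9, 16.7 and 178 CPM in Y541S N and 206, 182 and 24.6 CPM in WT N, against 17.4 to 61.0 CPM in ML. The 3 high values were those of Y541S N 3, WT N 1 and WT N 2. Hsd17b7, a ketosteroid reductase of the sterol pathway, followed with 0.85 ± 0.39 (adjusted p = 0.118), and its N libraries ran from 6.44 CPM in WT N 3 to 93.9 CPM in Y541S N 3. Fasn, fatty acid synthase, had the fold change nearest 0, −0.01 ± 0.19 with a 95% interval of −0.43 to 0.40, and ran from 56.4 to 158 CPM in N and from 61.8 to 158 CPM in ML. For Acly, which cleaves citrate to acetyl-CoA, the fold change was −0.15 ± 0.16 with an interval of −0.49 to 0.20. Elovl5 and the desaturase gene Scd2 were at 0.15 ± 0.18 and −0.48 ± 0.21, and Acaca, the carboxylase that makes malonyl-CoA, was at −0.83 ± 0.35 (adjusted p = 0.0941, N lower in 7 of 9 pairs). Dhcr7, the reductase of the last step in one branch of cholesterol synthesis, was at −0.63 ± 0.28 (adjusted p = 0.102) with 12.2 to 57.2 CPM in N and 27.2 to 73.3 CPM in ML. For Me1, Acss2, Nsdhl, Msmo1 and Lss the fold changes lay between −0.50 and −0.18, and for Cyp51, Insig1, Stard4, Mvk, Scd1 and Hmgcs1 between 0.09 and 0.83, with adjusted p of 0.168 or more in all 11. Insig1, which retains SREBP, ran from 6.69 to 36.2 CPM in N and from 7.16 to 36.4 CPM in ML, nearly the same range. Stard4, a carrier of cholesterol, ran from 0 to 31.4 CPM in N and from 1.67 to 24.2 CPM in ML. Fitted changes of Fdps (−0.04 ± 0.45) and Idi1 (−0.08 ± 0.41) rest on low counts, 1282 and 658 over the 18 libraries, and 79.6% of the exon bases of Fdps lie inside other genes' spans.

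In D542G, 6 of the 32 genes fell in N against ML and 0 rose, with 9.20% of all genes called, 4.71% higher and 4.49% lower. The 6 were Sqle, Fads2, Elovl7 and Srebf2, given above, with Pmvk (−1.41 ± 0.40, adjusted p = 0.0424, lost in 10 of 18 fits that left out 1 library) and Ebp (−0.82 ± 0.22, adjusted p = 0.0305, lost without D542G ML 1, D542G ML 2, D542G N 1 or D542G N 3). Leaving out 1 library gave 3 to 9 calls, the lowest without D542G N 3. Every D542G N library was below every D542G ML library for 21 of 32 genes, against 19.1% of all genes. In Y541S, 2 genes fell and 0 rose, with 6.95% of all genes called, 4.22% higher and 2.73% lower. The count was 0 without Y541S ML 1, Y541S ML 3, Y541S N 1 or Y541S N 2, and 1 without any 1 of the D542G N libraries, D542G ML 1, D542G ML 2, WT ML 3, Y541S ML 2, WT N 1 or WT N 2. It was 3 without WT N 3 and 5 without Y541S N 3. In WT, 1 gene fell and 0 rose, with 3.53% of all genes called, 2.14% higher and 1.39% lower. The count was 4 without WT N 3, 2 without Y541S N 3 and 0 without WT ML 2 or WT N 2. The shares of all genes called moved too. They were 15.9% in D542G, 10.2% in Y541S and 18.5% in WT without WT N 3 and Y541S N 3 together. Those in the fits that left out 1 library are not given here. With all libraries, the median log2 fold change of the 32 genes was −0.79 in D542G, −0.28 in Y541S and 0.34 in WT. Without the 3 epidermal-rich N libraries it was −0.76 in D542G, −0.99 in Y541S and −0.19 in WT, where WT N 3 is then the only N library, so the sign in WT and the order of the genotypes rest on those libraries.

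These medians did not show that the gate change differed between genotypes. Tested directly as an interaction, 0 of the 32 genes were called for D542G against WT by edgeR, where 0.109% of all genes were. At an unadjusted p under 0.05 there were 10 of the 32, against 1954 of the 18298 genes tested. DESeq2 called 2 (and 2.21% of all genes), and limma-voom with quality weights called 7 (6.85% of all genes). For Y541S against WT edgeR called 0 (0.00% of all genes), DESeq2 0 (1.01%) and limma-voom 2 (1.83%). Here 1 member and 1538 genes in all had an unadjusted p under 0.05. For D542G against Y541S edgeR called 0 (0.109% of all genes), DESeq2 1 (329 of the 18298 genes tested) and limma-voom 1 (263 of them). At an unadjusted p under 0.05 there were 4 members and 1578 genes in all. The smallest adjusted p was that of Elovl7 for D542G against WT, with a difference of −2.01 ± 0.46 between the gate changes (adjusted p = 0.128).

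Among N libraries, fitted levels in D542G were below those in WT for 29 of the 32 genes and below those in Y541S for 29. Against WT N, 3 fell and 0 rose, with 2.43% of all genes called, 1.61% higher and 0.820% lower. Sqle was at 22.3, 36.5 and 8.94 CPM in D542G N, against 87.01, 177 and 199 CPM in WT N, a fold change of −2.77 ± 0.61 (adjusted p = 0.0310). Srebf2 fell by 1.29 on the log2 scale (adjusted p = 0.0400) and Elovl7 by 1.64 (adjusted p = 0.0210). The Srebf2 call was lost in 9 of 18 fits that left out 1 library. For all 3 genes every D542G library was below every WT library. Without Y541S N 3, WT N 1 and WT N 2, the N libraries rich in epidermal markers, the number below 0 was 23 against WT and 19 against Y541S. The median log2 fold change of the 32 genes against WT N was −1.23 (−0.71 without those libraries), against −0.06 for all genes (0.12 without them). Against Y541S N it was −1.03, and −0.15 without Y541S N 3, WT N 1 and WT N 2. Against WT N, 18 of the 32 had an unadjusted p under 0.05, as did 3376 of the 18298 genes tested. The 3 libraries of each group did not overlap for 17 genes lower in D542G N, against 11.0% of all genes. Leaving out 1 library gave 0 calls without D542G N 1, D542G N 3 or WT N 2, 1 without D542G N 2, 5 without Y541S N 1, 8 without Y541S N 3 and 9 without WT N 3. The share of all genes called moved too, to 10.3% without WT N 3 and Y541S N 3 together. Shares in the fits that left out 1 library are not given here. Whether the 32 genes moved more than other genes was not tested. DESeq2 called 11 of the 32 (9.37% of all genes) and limma-voom 17 (22.4%), all lower.

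**Figure D4:**
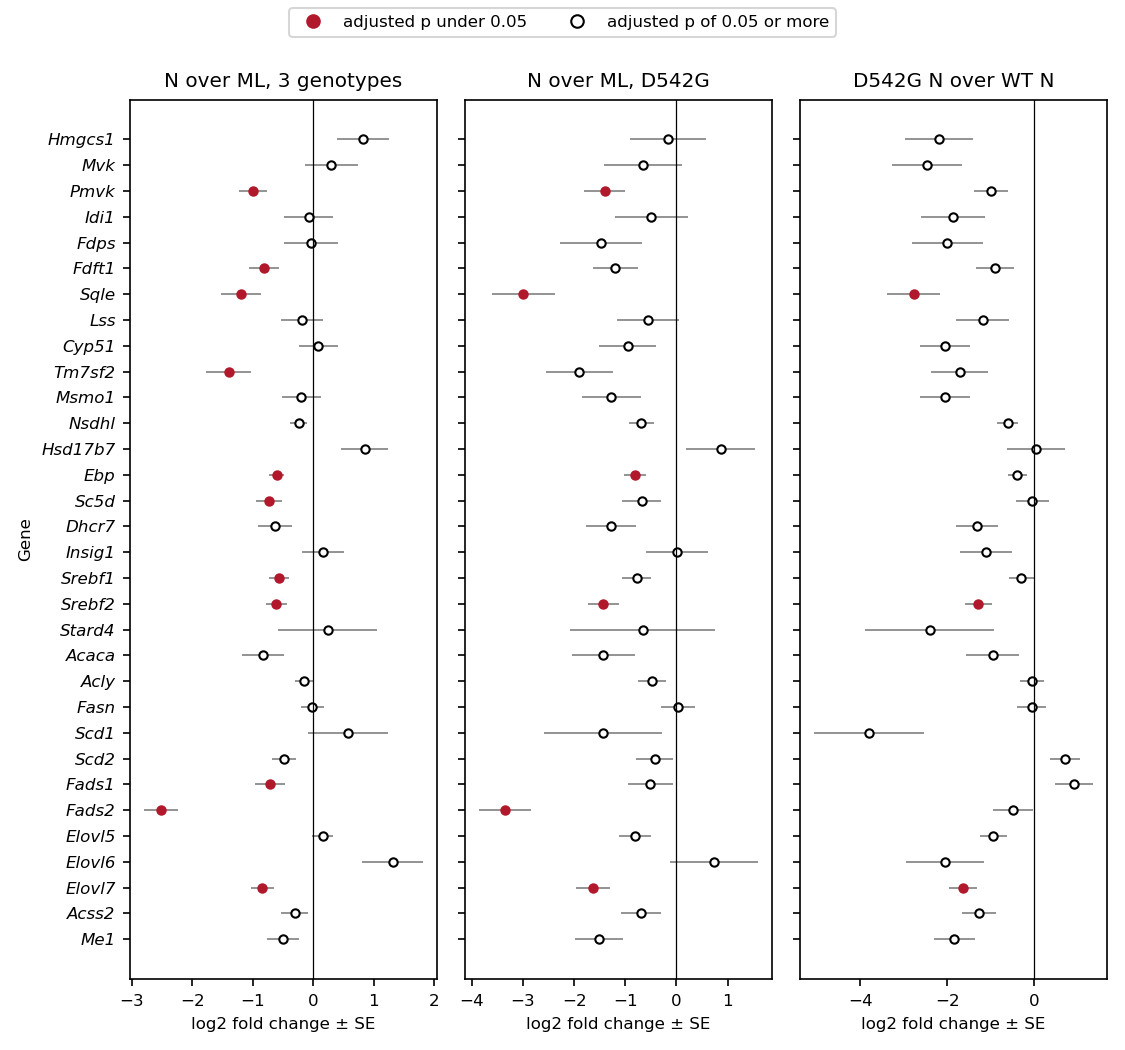
Log2 fold change ± SE of the 32 measured genes in 3 comparisons, with filled points for an adjusted p under 0.05; the horizontal scale differs between panels. Calls number 11 for N over ML across genotypes, 6 for N over ML in D542G and 3 for D542G N over WT N, all below 0.

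Scd1, the desaturase that makes oleate, had the largest fitted change between these groups, −3.80 ± 1.27 (adjusted p = 0.127), without passing the test. It stood at 6.33, 54.3 and 1.95 CPM in D542G N, 18.3, 476 and 784 CPM in Y541S N and 356, 460.0 and 56.4 CPM in WT N. Every D542G N library was below every WT N library, and Y541S N 1 was as low as D542G N. Scd1 and Scd2 are close relatives, so reads may be split between them; Scd2 stood at 49.0 to 108 CPM in D542G N, against 29.6 to 59.9 CPM in WT N. The malic enzyme gene Me1, a source of NADPH, just missed the threshold with −1.84 ± 0.47 (adjusted p = 0.0534), at 12.02, 20.3 and 10.5 CPM in D542G N and 56.3, 67 and 30.1 CPM in WT N.

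Against WT N, 2 genes rose in Y541S N and 1 fell. Fads1 rose to 559, 519 and 231 CPM, against 128, 60.2 and 55.5 CPM in WT N, a fold change of 2.43 ± 0.46 (adjusted p = 0.0203). Fads2 rose to 160.0, 188 and 69.4 CPM, against 34.8, 27.8 and 12.8 CPM in WT N, a fold change of 2.47 ± 0.49 (adjusted p = 0.0268). Every Y541S N library was above every WT N library for both, with Y541S N 3 the lowest of its group. Elovl7 fell by 1.70 on the log2 scale (adjusted p = 0.0233), again with no overlap. Of all genes 1.14% were called in this comparison, 1.02% higher and 0.115% lower. The count of members called was 0 without Y541S N 1, Y541S N 2 or WT N 2, 1 without WT N 1 and 7 without Y541S N 3. Without WT N 3 and Y541S N 3 together, the share of all genes called was 10.6%. Shares in the fits that left out 1 library are not given here. Without Y541S N 2 and Y541S ML 2, the libraries rich in milk genes, 0 of the 32 and 0.317% of all genes were called. Fitted differences were then 2.30 ± 0.45 for Fads1 (adjusted p = 0.0592), 2.21 ± 0.46 for Fads2 (adjusted p = 0.0723) and −1.49 ± 0.36 for Elovl7 (adjusted p = 0.113). Y541S N 1, with 1462 CPM of milk markers, had 559 CPM of Fads1 and 160.0 CPM of Fads2. Of the 10 basal markers 3 rose as well in Y541S N against WT N, and 0 fell: the smooth muscle genes Acta2 (3.49 ± 0.69, adjusted p = 0.0268) and Tagln (3.22 ± 0.48, adjusted p = 0.00616) and the oxytocin receptor gene Oxtr (3.67 ± 0.76, adjusted p = 0.0323), which mark contractile myoepithelial cells. Acta2 stood at 4639, 2437 and 2674 CPM in Y541S N, against 104, 181 and 581 CPM in WT N, while the whole basal list summed to 21367 to 37211 CPM in Y541S N and 6137 to 39720 CPM in WT N. Of the 3 defining basal markers, Krt5, Krt14 and Acta2, none was at 0 in any N library. The part of myoepithelial or milk-producing cells in the rise of Fads1 and Fads2 was not tested.

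D542G N and Y541S N differed in 2 genes, both lower in D542G, with 1.43% of all genes called, 0.421% higher and 1.01% lower. Elovl5, which lengthens polyunsaturated chains, stood at 32.7, 27.3 and 32.4 CPM in D542G N, against 123, 139 and 82.99 CPM in Y541S N, a fold change of −1.91 ± 0.31 (adjusted p = 0.00833). For Fads2 it was −2.96 ± 0.50 (adjusted p = 0.00869). The groups did not overlap for either gene. Without D542G N 1 neither was called, and without D542G N 3 Fads2 was not. WT N lay between them for Elovl5, at 81.3, 46.4 and 49.99 CPM. The same 3 contractile basal markers fell in D542G N against Y541S N, Acta2 (−3.70 ± 0.70, adjusted p = 0.0165), Tagln (−3.30 ± 0.48, adjusted p = 0.00344) and Oxtr (−3.99 ± 0.77, adjusted p = 0.0183), and 0 of the 10 basal markers rose. Acta2 stood at 214, 318 and 221 CPM in D542G N. The sum of the 10 lay between 14736 and 16575 CPM there, against 21367 to 37211 CPM in Y541S N. Their part in the differences of Elovl5 and Fads2 was not tested. Any 2 of these 3 comparisons have one group of N libraries in common.

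In the ML gate none of the genes was called between genotypes. In each of D542G against WT, Y541S against WT and D542G against Y541S, edgeR called 0 of the 32 genes and 0.00% of all genes, and DESeq2 and limma-voom called 0 of the 32. Over all genes DESeq2 called 110, 51 and 63, and limma-voom 93, 3 and 10. At an unadjusted p under 0.05 the counts were 1, 3 and 2 of the 32 genes, against 1129, 1012 and 886 of the 18298 genes tested. The 3 in Y541S against WT were Fads2 (1.62 ± 0.48, adjusted p = 0.865), Fads1 (1.34 ± 0.44, adjusted p = 0.865) and Acly (0.75 ± 0.28, adjusted p = 0.865). For all 3 genes the Y541S ML libraries were above the WT ML libraries. The interval of the Fads2 difference in ML, 0.58 to 2.66, overlaps that in N, 1.40 to 3.54.

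Part of the sterol pathway was highest in the same 3 N libraries, which did not all share a genotype. Hmgcs1, which makes HMG-CoA, stood at 23.7, 48.5 and 30.8 CPM in D542G N, 46.2, 21.02 and 181 CPM in Y541S N and 164, 269 and 38.3 CPM in WT N. Msmo1, a methylsterol oxidase, stood at 27.9, 39 and 32.1 CPM in D542G N, 22.03, 36.6 and 163 CPM in Y541S N and 144, 189.6 and 77.4 CPM in WT N. Cyp51, which demethylates lanosterol, stood at 30.4, 39.02 and 28.1 CPM in D542G N, 42.8, 38.2 and 191 CPM in Y541S N and 99.1, 228 and 77.7 CPM in WT N. In all 3 genes Y541S N 3, WT N 1 and WT N 2 were the highest N libraries. That order held for 8 of the 16 sterol enzymes (Hmgcs1, Mvk, Idi1, Lss, Cyp51, Msmo1, Nsdhl and Dhcr7) and for 4 of the other 16 genes (Stard4, Elovl6, Acss2 and Me1), against 9.92% of all genes tested. Of the exon bases of Hmgcs1, 46.6% lie inside the span of Gm48342. The share inside other genes' spans is 68.5% for Lss and 52.2% for Acss2. For the rest of these genes it is 9.22% or less. The order was noticed in these data and is given as a description.

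Set against each gene's own mean, the median log2 level of the 16 sterol enzymes was −1.09, −0.65 and −1.06 in D542G N, −0.91, −0.92 and 0.69 in Y541S N and 0.27, 0.57 and −0.04 in WT N. In ML it was 0.06, 0.22 and −0.20 for D542G, −0.01, −0.39 and 0.42 for Y541S and −0.19, 0.01 and 0.27 for WT. For the 12 fatty acid enzymes the same median was −0.96, −0.89 and −0.85 in D542G N, −0.66, 0.17 and 0.29 in Y541S N and 0.15, 0.19 and −0.30 in WT N, with ML libraries between −0.49 and 0.38. For the sterol enzymes the 5 lowest libraries were all N libraries of a mutant, and Y541S N 3 was the highest of the 18. For the fatty acid enzymes the 3 D542G N libraries and Y541S N 1 were lowest. In ML the highest for sterol enzymes was Y541S ML 3, in which all 16 sterol enzymes were above their own mean.

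Sums of skin markers and of basal markers were high, and those of luminal markers low, in the N libraries where these genes were highest. The epidermal sum was high in the same 3 N libraries, and 8 of its 11 markers had them as the 3 highest N libraries, the defining markers Krt1 and Krt10 among them, while Lor, the other defining marker, stayed at or under 5.12 CPM in every library. Sebaceous gland markers (10 genes) summed to 20.95, 282 and 22.6 CPM in D542G N, 13.0, 79.1 and 1122 CPM in Y541S N and 2307, 2847 and 466 CPM in WT N, and 5 of the 10 had the same 3 libraries highest. Most of that sum was Krt79, and the defining marker Mc5r was 1.26 CPM in Y541S N 3, 3.87 CPM in WT N 1 and 3.80 CPM in WT N 2, 0.119 CPM in D542G N 2 and 0 in the other N libraries. Awat1, another defining marker, was at 0 in 8 of the 9 N libraries, and Awat2 reached 9.41 CPM in WT N 2. In ML, the epidermal sum was highest in Y541S ML 3, at 2092 CPM against 14.498 to 839 CPM in the other ML libraries, and so was the sebaceous sum, at 1202 CPM against 20.5 to 378 CPM. Adipocyte markers (10 genes) summed to 99.5 to 623 CPM in N and 60.2 to 241 CPM in ML, of which Fabp4 made up most. The defining adipocyte markers Adipoq, Plin1 and Cidec stayed at or under 3.09 CPM in every library. Among N libraries, basal markers (10 genes) also summed highest in Y541S N 3, WT N 1 and WT N 2, at 37211, 31015 and 39720 CPM. The other N libraries held 6137 to 26706 CPM, and 2 of the 10, Krt14 and Krt5, had the same 3 highest. Luminal markers (11 genes) summed lowest there, at 1584, 1202 and 1578 CPM, against 2667 to 18250 CPM in the other N libraries. Leaving these 3 libraries out removes skin, basal and luminal differences together. Whether skin or basal cells carried the sterol genes into these libraries was not tested.

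**Figure D5:**
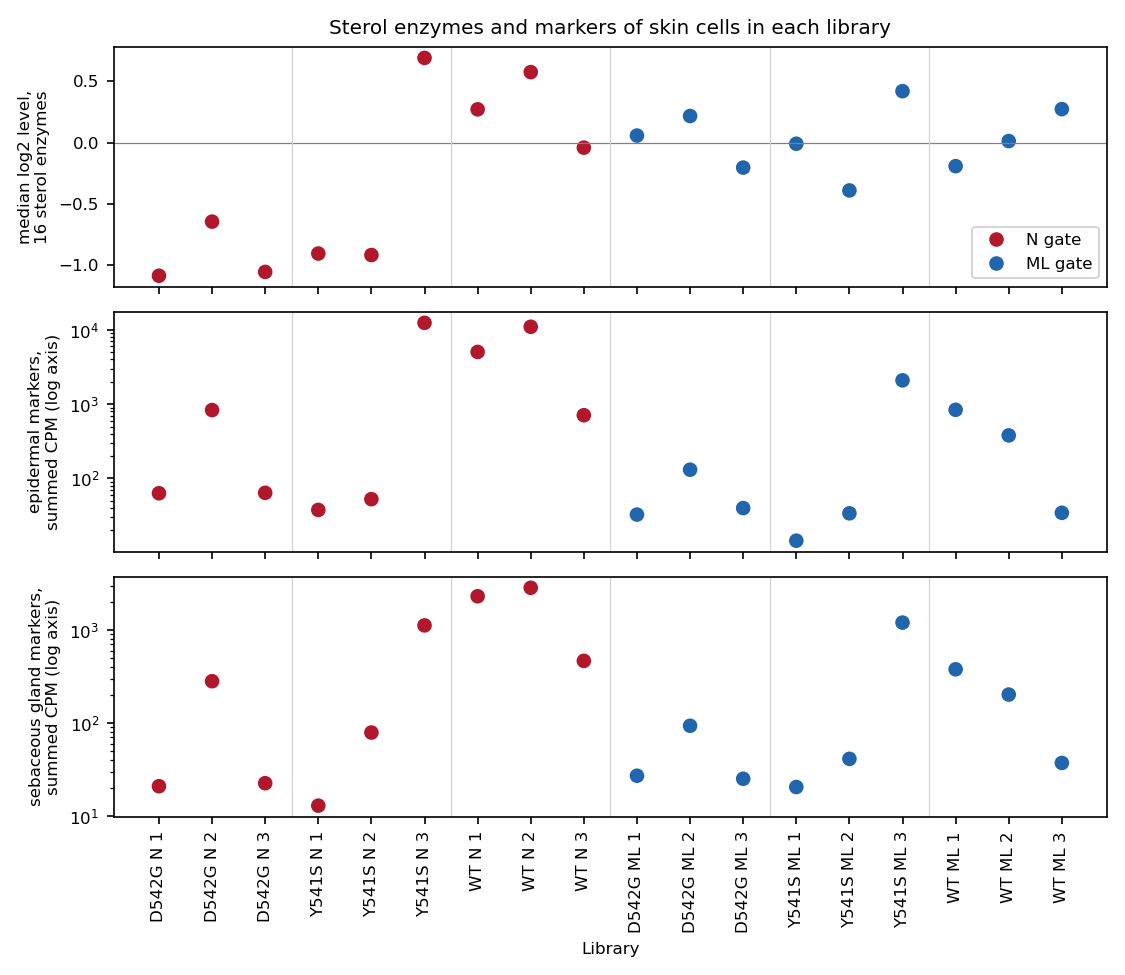
In each library, the median log2 level of the 16 measured sterol enzymes relative to each gene's mean (top), the summed CPM of 11 epidermal markers (middle, log axis) and of 10 sebaceous gland markers (bottom, log axis); N libraries are red and ML libraries blue. Y541S N 3, WT N 1 and WT N 2 are highest in the middle panel and among the N libraries in the other panels, and WT N 3 lies between them and most mutant N libraries.

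Without Y541S N 3, WT N 1 and WT N 2, an alternative added after the data were seen that leaves WT N 3 as the only WT N library, assumed to vary like the other groups, 13 of the 32 genes fell in N against ML over the genotypes and 0 rose, with 17.1% of all genes called. The 13 included 8 of the earlier 11, without Srebf1, Sc5d and Fads1, and Lss, Msmo1, Dhcr7, Acss2 and Me1 were added. Fitted values were then below 0 for 31 of 32 genes, and that of Hmgcs1 was −0.27 and that of Elovl6 −0.27. The libraries left out were the highest N libraries for 8 of the 16 sterol enzymes and 4 of the other 16 genes. Each added gene, Hmgcs1 and Elovl6 were among these. Leaving those libraries out lowers such genes in N by construction, so these falls are not separate evidence. Against WT N 3 alone, D542G N was lower in Sqle (−3.12 ± 0.58, adjusted p = 0.0147), Srebf2 (−1.34 ± 0.26, adjusted p = 0.0160) and Elovl7 (−1.62 ± 0.34, adjusted p = 0.0222), and higher in Hsd17b7 (3.03 ± 0.69, adjusted p = 0.0316). Since the luminal markers of WT N 3 lie in the ML range, this fit cannot tell a difference between genotypes within N from the difference between gates. The fitted difference of Hmgcs1 was then −0.14 ± 0.70 in place of −2.19 ± 0.77, and that of Mvk −1.10 ± 0.72 in place of −2.47 ± 0.80. Against Y541S N 1 and N 2, D542G N was lower in Fads2 (−3.28 ± 0.44), Elovl5 (−2.09 ± 0.30) and Fads1 (−1.81 ± 0.40, adjusted p = 0.0329), while Sqle did not pass the test (−1.23 ± 0.50, adjusted p = 0.226).

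Genes around these pathways, on lists put together with earlier results known, are given with their counts of calls between gates, where 13.8% of all genes rose and 13.6% fell. Of 10 other sterol synthesis genes tested 3 fell and 0 rose: Erg28 (−0.48 ± 0.11), a scaffold of sterol enzymes in yeast, Fdx1 (−0.59 ± 0.17), an electron carrier, and Por (−0.55 ± 0.18), which passes electrons to Cyp51 and Sqle. Among 16 genes of SREBP processing and lipid transcription factors 2 rose and 0 fell, the nuclear receptor gene Rxra (0.63 ± 0.15) and Mbtps1 (0.57 ± 0.16), the first protease to cut SREBP. Of 14 genes of sterol export and trafficking 3 rose and 5 fell, with the sterol exporter Abcg1 at −1.73 ± 0.24 and the lipoprotein gene Apoe at 2.99 ± 0.53. Of 24 other fatty acid genes 3 rose and 4 fell, with Fads3, a neighbour of Fads1 and Fads2, at −1.93 ± 0.29 and the fatty acid ligase Acsl4 at 1.15 ± 0.21. Glycerolipid genes rose for 3 and fell for 3 of 19, NADPH-producing enzymes rose for 2 and fell for 3 of 10, with Taldo1 of the pentose phosphate pathway at −1.08 ± 0.11, and fatty acid oxidation genes rose for 3 and fell for 5 of 20. The medians of the 7 lists lay between −0.20 and 0.10, against −0.03 for all genes.

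Between N libraries, 3 genes of fatty acid oxidation rose in D542G. Against WT N they were 3 of 20 oxidation genes, with 0 that fell, while 1.61% of all genes rose and 0.820% fell: Cpt1a, which carries fatty acids towards the mitochondrion (1.30 ± 0.26, adjusted p = 0.0203), and Hadha and Hadhb, subunits of the trifunctional protein (1.01 ± 0.21 and 0.92 ± 0.22, adjusted p = 0.0226 and 0.0440). Against Y541S N, where 0.421% of all genes rose, the same 3 of 20 rose, by 1.4996 ± 0.26, 1.14 ± 0.21 and 1.13 ± 0.22. Cyb5r3, a reductase that feeds sterol and fatty acid desaturation, fell in D542G N, by 1.28 on the log2 scale against WT N (SE 0.23, adjusted p = 0.0110). It was the only call there among the 10 other sterol synthesis genes tested. Abcg1, the sterol exporter, fell by 2.07 on the log2 scale in the same comparison (SE 0.43, adjusted p = 0.0231), the only call there among the 14 genes of its list. In Y541S N, Fads3 (2.37 ± 0.51, adjusted p = 0.0394) and the lipoprotein receptor gene Vldlr (4.12 ± 0.64, adjusted p = 0.00718) rose against WT N. Each was the only call there in its list, of 24 other fatty acid genes and 19 glycerolipid genes. Of all genes, 1.02% rose and 0.115% fell in that comparison.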

How the data were processed

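RNA-seq gene counts of 18 libraries, 3 in each of 6 groups, were analysed as deposited. Each deposited table held raw counts per Ensembl gene and RPKM. Alignment was to GRCm38 per the submitters' processing notes; no source used here names the aligner, counter or annotation, or says whether strand was used. The RPKM values deposited by the authors were not used, because their gene width was the whole gene span, introns included, for 85.6% of the genes. Of 52636 identifiers, 52403 (99.6%) were named from GENCODE M21. No per-sample column was left unused.

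Genes were filtered with filterByExpr (minimum count 10, minimum total 15), which kept 18298. A model with 6 groups was fitted to the counts with edgeR 4.0.16 (R 4.3.3) after TMM scaling (factors 0.850 to 1.10) and tested with the quasi-likelihood F test, with Benjamini-Hochberg adjustment over all genes and a threshold of 0.05. The standard error is the log2 fold change divided by the square root of F. All groups shared one estimate of spread, with 12 residual degrees of freedom and a common dispersion of 0.425. The code was tested on simulated counts. Alternatives were DESeq2 1.42.0, limma 3.58.1 (voom with quality weights), RLE scaling, no filter, the replicate number as a block, leaving out each library, leaving out WT N 3 and Y541S N 3 together, and 2 sets of libraries chosen after the data were seen.

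N and ML libraries of one genotype and number deviated together from their group means (9 of 9 pairs, r = 0.166 to 0.553 over 10000 genes), so their numbers were taken to pair them, although WT N 2 correlated slightly better with another WT ML library (0.192) than with its own (0.166). Same-numbered libraries of different genotypes did so in some pairs and not in others (r = −0.543 to 0.298). The highest r was that of D542G N 1 with Y541S N 1. In gate comparisons and gate changes the block was the N and ML pair of one genotype and number, and between genotypes it was the number alone. No label says what a number marks. Replicates differed from each other by more than counting noise. The genes and lists were chosen with earlier results of these data known. Values in every library are given for up to 12 called genes of the comparison over genotypes, for up to 5 in each other one and for the 2 lowest and highest fold changes. Other genes given with every library's value were chosen after their values were seen. Up to 3 called genes are named from each list.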

Additional observations from a re-analysis of the deposited data

How the results depend on the processing

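Over the 3 genotypes the count of genes called between N and ML was 11, and 9 to 16 under the alternatives. With the replicate block it was 10 (26.8% of all genes), without Fads1, and 8 in D542G (10.7%). In the other comparisons the block moved no count by over 1.5 times. DESeq2 called 3 genes between gates in WT, 12 in D542G, 5 in Y541S, 11 for D542G against WT in N, 6 for D542G against Y541S in N, and 2 and 1 for the gate change of D542G against WT and against Y541S. Limma-voom called 7, 15 and 8 between gates in WT, D542G and Y541S. Against WT in N it called 17 for D542G and 6 for Y541S (22.4% and 10.6% of all genes). For the gate changes it called 7, 2 and 1 (6.85%, 1.83% and 1.44%). RLE scaling (6.79% of all genes) and no filter (1042 genes) each left 1 call in Y541S between gates. Without WT N 3 and Y541S N 3, the calls between gates were 6 in WT, 11 in D542G and 9 in Y541S. Those against WT in N were 14 for D542G (10.3% of all genes) and 13 for Y541S (10.6%). Those for the gate changes against WT were 5 and 6 (2.29% and 4.52%). Without the 3 N libraries rich in epidermal markers the counts were 11 in D542G and 8 in Y541S between gates, 5 for Y541S against WT in N and 1 for the gate change of D542G against WT. Without the Y541S libraries rich in milk genes, 0 genes were called between gates in Y541S or for Y541S against WT in N. Leaving out 1 library gave 0 to 4 calls between gates in WT, 3 to 9 in D542G, 0 to 5 in Y541S, 0 to 9 and 0 to 7 for D542G and Y541S against WT in N, 0 to 3 for D542G against Y541S, and 0 to 1 for each gate change against WT. For the fits that left out 1 library, the shares of all genes called are not given here. The causes of the shifts between settings were not tested, and in the other settings the shares over all genes shifted too. Between gates in WT, D542G and Y541S, DESeq2 called 11.3%, 17.4% and 13.6% of all genes. Limma-voom called 5167, 5862 and 2595 of the 18298 genes. The fit without WT N 3 and Y541S N 3 called 18.5%, 15.9% and 10.2%. Without the epidermal-rich libraries the shares were 14.6% in D542G and 9.41% in Y541S.

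Across all genes, the count for D542G against WT in N was 444, against 1714 by DESeq2, 4096 by limma-voom, 1877 without WT N 3 and Y541S N 3, and 309 with the block. For Y541S against WT in N it was 208, against 1065 by DESeq2, 1931 by limma-voom, 1946 without WT N 3 and Y541S N 3, 648 without the epidermal-rich libraries, 58 without the milk-rich ones and 134 with the block. Between gates over the genotypes it was 5021, against 6079 by DESeq2, 7690 by limma-voom and 3121 without the epidermal-rich libraries.

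No called gene changed sign between gates over the genotypes under an alternative. Among the uncalled ones, the sign of the log2 fold change turned without the epidermal-rich libraries for Hmgcs1 (−0.27), Mvk (−0.66), Cyp51 (−0.55), Hsd17b7 (−0.33), Insig1 (−0.24), Stard4 (−1.08), Scd1 (−0.46) and Elovl6 (−0.27). Those libraries were the highest N libraries for Hmgcs1, Mvk, Cyp51, Stard4 and Elovl6, so a lower value there was built in. Without WT N 3 and Y541S N 3 it turned for Mvk (−0.0886), Cyp51 (−0.21), Insig1 (−0.13) and Stard4 (−0.58). By limma-voom it turned for Cyp51 (−0.21), Insig1 (−0.11), Stard4 (−0.57) and Scd1 (−0.0789), and with the replicate block for Cyp51 (−0.0630), Stard4 (−0.20) and Scd1 (−0.28). Fdps was 0.0649 without the milk-rich libraries, and Fasn 0.0015 with DESeq2 and RLE scaling. Leaving out 1 library, values ran from −0.21 to 0.58 for Mvk, −0.37 to 0.0738 for Idi1, −0.61 to 0.11 for Fdps, −0.30 to 0.25 for Cyp51, −0.16 to 0.45 for Insig1, −0.69 to 0.66 for Stard4, −0.10 to 0.10 for Fasn and −0.20 to 0.76 for Scd1. Low counts limit Idi1, Fdps and Stard4, which was at 0 in Y541S N 2.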
